A study of Mus musculus with 8 samples.

Results

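The genes of the mitochondrial respiratory chain and the ATP synthase were followed over 4 populations of mouse CD4 T cells that express Foxp3, the transcription factor of regulatory T (Treg) cells. Members were the rows of the count table whose names begin as those of the nuclear genes for complexes I to V and their namesake assembly factors (Nduf, Sdh, Uqcr, Cox4 to Cox8 and Atp5) and whose mean over the 8 libraries was at least 1 CPM, a gene's counts scaled alike by each library's total. Of 24108 named genes, 93 matched the names and 84 were members: 36 of complex I, 4 of complex II, 8 of complex III, 11 of complex IV, 16 of complex V and 9 assembly factors. All 84 passed the expression filter of the test. The lowest member was Ndufaf2, with a mean of 10.3 CPM, and the highest row left out was Cox6b2, with 0.624 CPM.

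All cells came from mesenteric lymph nodes of mice with the Foxp3 alleles DTR-GFP and Thy1.1, 1 CD4CreER allele and 1 R26lsl-tdTomato allele. The mice were raised with AVNM (an abbreviation not explained there) on an amino acid-defined diet. They received tamoxifen, which switches on tdTomato through CreER, and about 3 weeks of diphtheria toxin, which kills cells that express the DTR. Chow and SPF fecal microbiota followed, and cells were sorted 12 days after colonization. The populations were tdTomato-positive GFP, tdTomato-positive Thy1.1, tdTomato-negative GFP and tdTomato-negative Thy1.1 cells, with 2 libraries each. They are called marked and unmarked here. The series' design text names CD4 T cells outside the thymus that lacked Foxp3 as the cells to be marked. CreER is under CD4 in all 4 populations. The DTR is part of the GFP allele alone, so toxin sensitivity goes with the GFP reporter and the effects of both cannot be told apart. Whether Thy1.1 cells that had Foxp3 at that time also took the mark was not tested. Whether both reporters came from the same animals is not stated.

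Complexes I and II pass electrons from NADH and succinate to ubiquinone, complex III passes them to cytochrome c, and complex IV passes them to oxygen. Complexes I, III and IV pump protons across the inner mitochondrial membrane, and complex V, the ATP synthase, uses the gradient to make ATP. Treg cells are known to depend on mitochondrial respiration, and loss of complex III in Treg cells of mice impairs their suppressive function. Complexes I, III, IV and V also hold subunits encoded by mitochondrial DNA. No row of the table named one of the 13 mitochondrially encoded subunits, so they are not analysed here.

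Library totals lay between 38085686 and 47908198 counts, and 14943 to 15863 genes had a count. All 7 Treg cell and T cell markers, Foxp3, Il2ra, Ctla4, Ikzf2, Tnfrsf18, Cd4 and Cd3e, were present in each library, with summed levels from 3598 to 4386 CPM. In these bulk samples, fewer cells of a type and less RNA per cell cannot be told apart. The library kit does not mark strand. Exons of 30 members overlap those of another gene. A stretch shared with an annotated transcript of a gene elsewhere (98% identity or more over at least 100 bases) is called a near-identical copy here. It was found for 18 members, and copies outside the annotation were not sought. Levels of these 41 members are therefore uncertain, and 43 members have neither.

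Per kilobase of transcript, the most abundant member was Atp5b, the catalytic beta subunit of the ATP synthase, with a mean of 498 CPM per kb over the 8 libraries. Atp5b has a near-identical copy. The highest members of the other complexes were Cox4i1 with 295 CPM per kb in complex IV, Uqcrh with 206 CPM per kb in complex III, Sdhb with 171 CPM per kb in complex II and Ndufb8 with 152 CPM per kb in complex I. The lowest were Cox7a2l with 72.2 CPM per kb in complex IV, Uqcrfs1 with 73.1 CPM per kb in complex III, Sdhc with 29.1 CPM per kb in complex II, Ndufb4 with 24.0 CPM per kb in complex I and Atp5s with 9.51 CPM per kb in complex V. The assembly factors were scarce, from 8.60 CPM per kb for Ndufaf4 to 22.3 CPM per kb for Ndufaf8.

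Forms of complex IV subunits that are known from particular tissues or from hypoxia were low. Cox4i2, Cox6a2, Cox7a1, Cox7b2 and Ndufa4l2 did not exceed 0.821 CPM in any library, where a count of 0 allows a level of up to 0.0626 to 0.0788 CPM (3 counts). Cox8b and Cox8c were listed at 0 in every library. Cox6b1, the subunit form that most tissues use, was also listed at 0 in all 8 libraries, while its testis form Cox6b2 reached 1.32 CPM in an unmarked Thy1.1 library. A listed 0 of such a gene can come from the counting, and no level of Cox6b1 is given here. The 3 genes for the membrane ring of the ATP synthase encode the same mature subunit c. Atp5g3 was the highest of them at 312 CPM per kb.

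**Figure D1:**
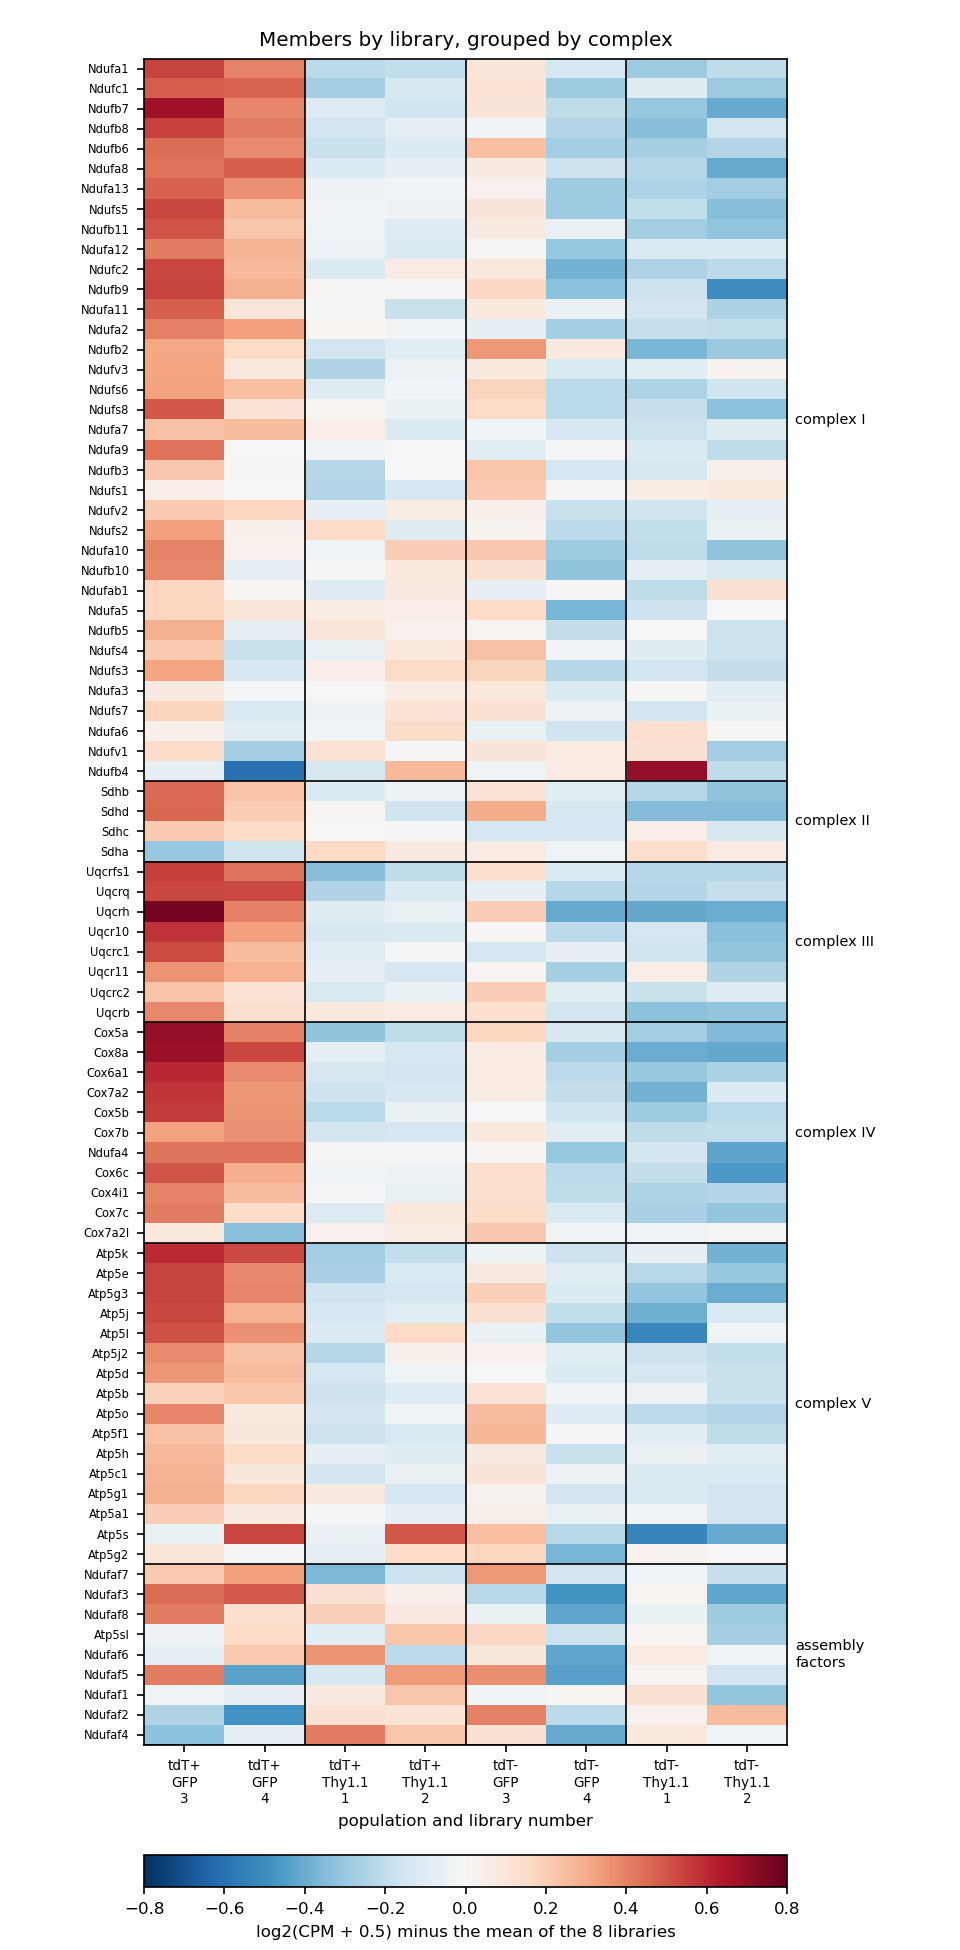
Each row is a member and each column a library. Colour is log2(CPM + 0.5) minus the mean of the 8 libraries, red above and blue below. The marked GFP libraries are the reddest columns in complexes I, III, IV and V, and the assembly factors show no common pattern.

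Marked GFP cells had the highest levels of most subunits. In 48 of 84 members both marked GFP libraries lay above all 6 other libraries, among them 10 of 11 members of complex IV and 1 of 9 assembly factors. In 2 members, Sdha and Ndufaf2, both lay below all 6. Summed over the members, the level was 11004 and 9910.4 CPM in marked GFP cells, 8304 and 8479 CPM in marked Thy1.1 cells, 9319 and 8038 CPM in unmarked GFP cells, and 7994 and 7663 CPM in unmarked Thy1.1 cells. In these sums the libraries of the GFP populations differed more between themselves than those of the Thy1.1 populations. Library 3 exceeded library 4 in 72 of 84 members in marked GFP cells and in 79 of 84 members in unmarked GFP cells. For these counts, and for those above or below all 6 other libraries, the share over all tested genes is not given here.

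By complex, the sums of the marked GFP libraries stood above all others for complexes I, III, IV and V. The margin was narrow in complex I, with 3128 and 2671 CPM in marked GFP cells and 2628 CPM in unmarked GFP library 3. Complex III summed to 1240.0 and 1070.2 CPM in marked GFP cells and to between 728 and 900.1 CPM in the other 6 libraries. Complex IV summed to 1575 and 1388 CPM in marked GFP cells and to between 918 and 1193 CPM elsewhere. Complex II did not separate, with 862 and 825 CPM in marked GFP cells and 751 to 859 CPM in the other libraries. The 9 assembly factors summed to 225 and 228 CPM in marked GFP cells, inside the range of 175 to 232 CPM of the other 6.

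**Figure D2:**
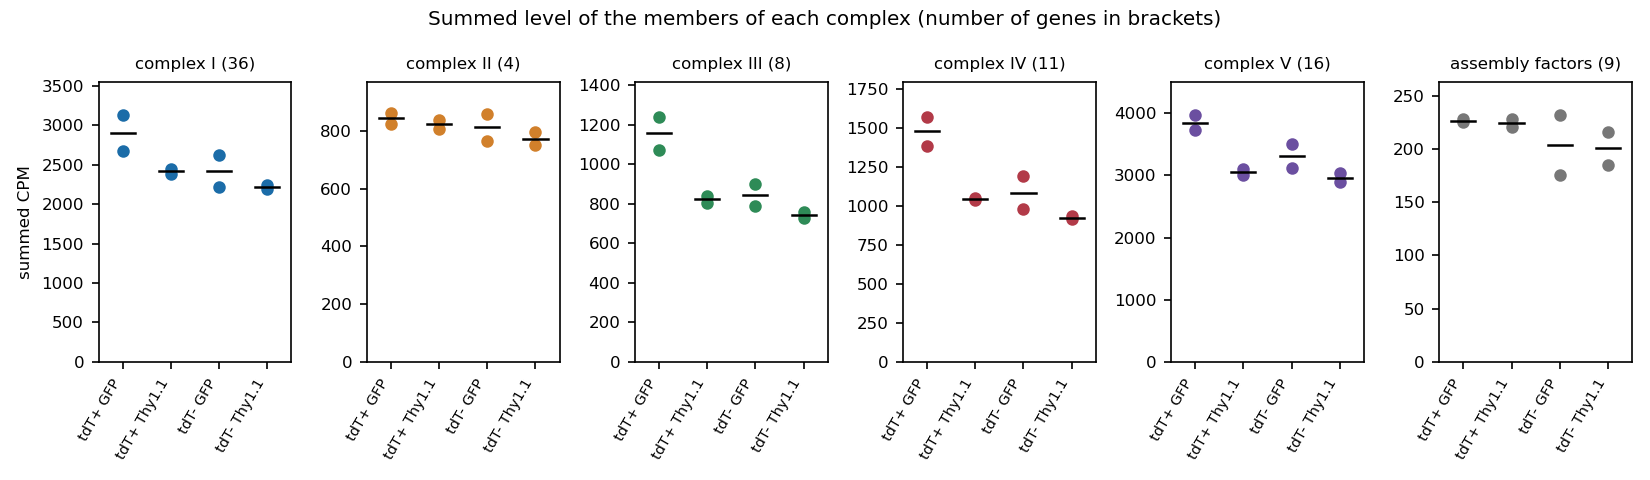
Summed CPM of the members of each complex, 1 point per library and a bar at the mean of the 2 libraries of a population. Axes start at 0. The marked GFP points are the highest in complexes I, III, IV and V and overlap other populations in complex II and the assembly factors.

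The first comparison asked how marked cells with the GFP allele differed from marked cells with the Thy1.1 allele. Of the 84 members, 29 (34.5%) rose in marked GFP cells and 0 fell (edgeR's quasi-likelihood test, Benjamini-Hochberg adjusted over all 13989 genes tested, threshold 0.05). Of all tested genes 8.01% were called higher and 14.8% were called in either direction. The members' median log2 fold change was 0.41, against -0.01 for all tested genes, and 75 members had a positive value. Both marked GFP libraries lay above both marked Thy1.1 libraries in 60 members (71.4%), against 26% of all tested genes. Only 4 members stood apart the other way, Sdha, Ndufaf1, Ndufaf2 and Ndufaf4, against 4636 of 13989 tested genes. Of the 29 called members, 19 overlap no other gene and have no near-identical copy.

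These calls depended on single libraries. Without marked Thy1.1 library 1 no member passed, without marked Thy1.1 library 2 only Uqcrfs1 did, and without marked GFP library 3 6 members did. Without either unmarked Thy1.1 library 15 passed. In such fits the remaining library of a population is assumed to vary like the others. All 29 had a positive fold change under every alternative and with every library left out. With 1 library left out, the members' median lay between 0.29 and 0.47.

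In complex III 5 of 8 members rose, and in all 8 both marked GFP libraries lay above both marked Thy1.1 libraries. Uqcrfs1, the Rieske iron-sulfur protein that hands electrons towards cytochrome c, had 143 and 131 CPM in marked GFP cells, against 76.8 and 84.3 CPM in marked Thy1.1 cells. Its log2 fold change was 0.83 ± 0.12 (SE, 2 libraries per population, edgeR adjusted p = 0.00504), the smallest adjusted p of all members. Both unmarked populations, at 106 and 89.8 CPM with GFP and 82.9 and 83.0 CPM with Thy1.1, lay below the marked GFP libraries. Uqcrq, a small subunit next to the quinone-binding part, had 84.5 and 84.4 CPM in marked GFP cells and 49.3 and 53.7 CPM in marked Thy1.1 cells. It rose by 0.78 ± 0.12 on the log2 scale (edgeR adjusted p = 0.00718), and all 6 other libraries lay between 49.3 and 55.7 CPM. Uqcrc1, a core protein of the complex, reached 408 and 339.6 CPM in marked GFP cells, against 268 and 282 CPM in marked Thy1.1 cells. Uqcrh, the acidic hinge protein that contacts cytochrome c1, had 185 and 143 CPM in marked GFP cells and 101 and 104 CPM in marked Thy1.1 cells. For Uqcrc1 and Uqcrh too, both marked GFP libraries lay above all 6 others. The remaining call was Uqcr10, a small subunit, at 0.65 ± 0.14 (log2, SE).

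Complex IV had the largest share of calls, 8 of 11, with a median log2 fold change of 0.55. Cox5a, a subunit on the matrix side, had 202 and 164 CPM in marked GFP cells and 98.7 and 107 CPM in marked Thy1.1 cells. Its log2 fold change of 0.89 ± 0.14 (SE, edgeR adjusted p = 0.00674) was the highest of all members. Exons of Cox5a overlap a predicted gene. Cox8a, a small membrane-spanning subunit, had 183 and 164 CPM in marked GFP cells and 108 and 103 CPM in marked Thy1.1 cells, a log2 fold change of 0.78 ± 0.13 (SE, edgeR adjusted p = 0.00764). Cox6a1, the isoform of subunit VIa used outside muscle, had 203 and 174 CPM in marked GFP cells and 122 and 120.5 CPM in marked Thy1.1 cells. In each of these 3 genes both marked GFP libraries lay above all 6 others, unmarked cells included. The other calls were Cox5b, a zinc-binding subunit, Cox7a2, Cox7b, Cox4i1 and Ndufa4, a complex IV subunit once counted with complex I, with log2 fold changes from 0.42 to 0.68. Cox7a2l, which joins complex IV to complex III in supercomplexes, did not follow: it had 82.1 and 61.2 CPM in marked GFP cells, on either side of the 79.1 and 80.6 CPM of marked Thy1.1 cells. Its fold change of -0.10 ± 0.16 (log2, SE) turned positive without marked GFP library 4.

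In the ATP synthase, 8 of 16 members rose. They were 4 of the 5 members in the catalytic head and central stalk (F1), 1 of 4 in the peripheral stalk and 3 of 6 in the membrane part, with Atp5s outside these parts. Atp5b had 1079 and 1108 CPM in marked GFP cells and 847 and 885 CPM in marked Thy1.1 cells. Its change was small and tight, 0.40 ± 0.07 (log2, SE, edgeR adjusted p = 0.0121). Atp5e, the epsilon subunit of the central stalk, changed more, with 95.8 and 86.0 CPM in marked GFP cells and 55.0 and 60.6 CPM in marked Thy1.1 cells. In both genes the marked GFP libraries were the highest of the 8. Among the genes for subunit c, Atp5g3 had 317 and 285 CPM in marked GFP cells and 195 and 198 CPM in marked Thy1.1 cells and rose by 0.68 ± 0.11 (log2, SE, edgeR adjusted p = 0.00806). Atp5g1 had 73.5 and 67.7 CPM in marked GFP cells and 63.3 and 54.8 CPM in marked Thy1.1 cells, and did not pass. Atp5g2 had 32.9 and 30.4 CPM in marked GFP cells and 29.2 and 34.1 CPM in marked Thy1.1 cells, which overlapped. Both Atp5g1 and Atp5g2 have near-identical copies, and a difference between the 3 genes was not tested.

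In complex I 7 of 36 members rose, and the median log2 fold change was 0.36. All 7 were accessory subunits, of 29 measured, and the 7 core subunits, which hold the redox centres, gave 0 calls with log2 fold changes from -0.04 to 0.40. Of the core subunits, 2 had an unadjusted p under 0.05 and DESeq2 called 0. Ndufb8, an accessory subunit of the membrane arm, had 148 and 135 CPM in marked GFP cells and 90.9 and 96.1 CPM in marked Thy1.1 cells, a log2 fold change of 0.66 ± 0.12 (SE, edgeR adjusted p = 0.0126). Its exons overlap a predicted gene. Ndufb7 and Ndufa8, both with the paired cysteine motifs of intermembrane space proteins, and Ndufa1, a small membrane subunit, rose by 0.61 to 0.74 on the log2 scale. Ndufa1 had 58.1 and 52.6 CPM in marked GFP cells and 34.2 and 34.6 CPM in marked Thy1.1 cells.

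Complex II was the one complex whose members separated in both directions. Sdhb, the iron-sulfur subunit, had 264 and 226 CPM in marked GFP cells and 179 and 188 CPM in marked Thy1.1 cells, and rose by 0.48 ± 0.11 (log2, SE, edgeR adjusted p = 0.0256). The membrane anchors Sdhc and Sdhd had log2 fold changes of 0.25 ± 0.11 and 0.47 ± 0.15 (SE) and did not pass in edgeR, while DESeq2 called Sdhd higher. Sdha, the flavoprotein that oxidizes succinate, had 324 and 356 CPM in marked GFP cells, below the 444 and 419 CPM of marked Thy1.1 cells. Its log2 fold change of -0.28 ± 0.09 (SE) missed the threshold (edgeR adjusted p = 0.0653, 0.0118 to 0.223 over the alternatives). Sdha passed as lower with library totals as scaling, with a stricter expression filter, with DESeq2, without unmarked GFP library 4 and without marked GFP library 4.

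Of the 9 assembly factors 0 were called in edgeR, 1 had an unadjusted p under 0.05, DESeq2 called 1 (Ndufaf7), and their median log2 fold change was 0.03. Ndufaf7, a methyltransferase that acts on a core subunit of complex I, had the highest value, 0.60 ± 0.20 (log2, SE). Ndufaf4, which acts early in complex I assembly, had 24.4 and 29.0 CPM in marked GFP cells and 41.1 and 36.0 CPM in marked Thy1.1 cells. Its log2 fold change of -0.47 ± 0.21 (SE) was the lowest of all members. Whether assembly factors and subunits differ in their response was not tested.

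**Figure D3:**
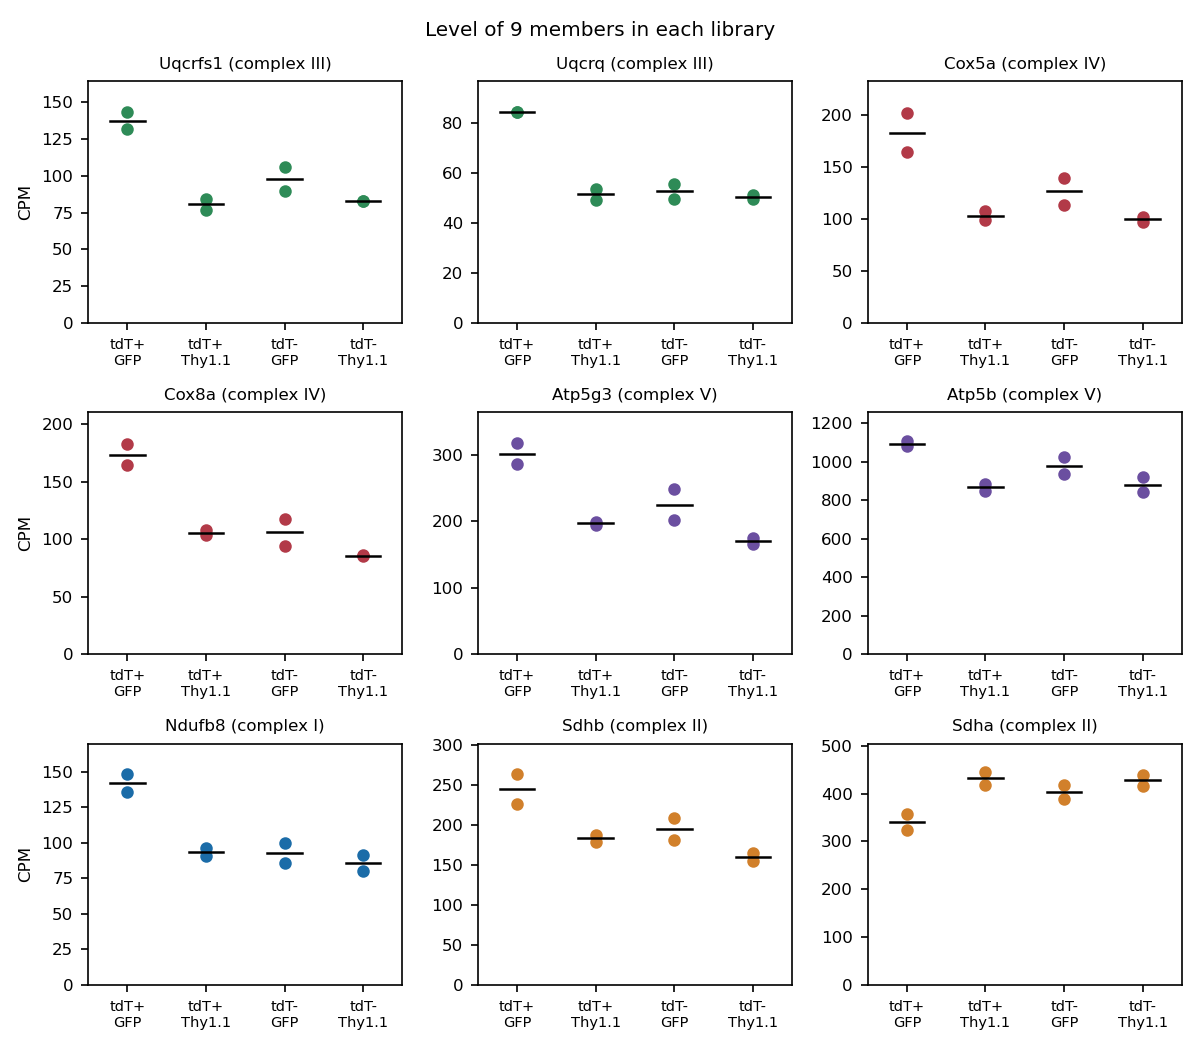
CPM of 9 members in each library, with a bar at the mean of the 2 libraries of a population and axes from 0. The members shown were chosen after their values were seen. In 8 panels both marked GFP points lie above the other 6, and for Sdha both lie below them.

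Promoters of 4 of the 29 members called higher are shown because these genes rose together, to display what lies upstream of them. RefSeq promoter windows (GRCm38.p6) matched 72 of the 84 members and 27 of the 29. Each line gives 200 bases that end before the start of transcription, 5′ to 3′ on the gene's strand, which is the minus strand for all 4. Capitals mark matches, on either strand, to motifs of factors known to act on respiratory genes. The regions are chr5:115348982-115349181 for Cox6a1, chr2:174464106-174464305 for Atp5e, chr4:116075072-116075271 for Uqcrh and chr13:30545363-30545562 for Uqcrfs1.
Cox6a1: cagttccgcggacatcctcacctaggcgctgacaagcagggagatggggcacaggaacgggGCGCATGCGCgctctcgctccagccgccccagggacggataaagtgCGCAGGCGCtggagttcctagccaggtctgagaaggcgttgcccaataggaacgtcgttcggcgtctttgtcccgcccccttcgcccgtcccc
Atp5e: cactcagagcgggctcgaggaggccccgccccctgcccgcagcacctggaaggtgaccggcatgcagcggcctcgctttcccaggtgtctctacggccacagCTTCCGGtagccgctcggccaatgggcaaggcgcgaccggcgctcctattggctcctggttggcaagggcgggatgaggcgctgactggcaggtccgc
Uqcrh: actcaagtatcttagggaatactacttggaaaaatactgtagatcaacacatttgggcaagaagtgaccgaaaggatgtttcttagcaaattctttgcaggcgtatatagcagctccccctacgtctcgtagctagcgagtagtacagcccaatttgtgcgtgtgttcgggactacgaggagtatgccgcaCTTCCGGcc
Uqcrfs1: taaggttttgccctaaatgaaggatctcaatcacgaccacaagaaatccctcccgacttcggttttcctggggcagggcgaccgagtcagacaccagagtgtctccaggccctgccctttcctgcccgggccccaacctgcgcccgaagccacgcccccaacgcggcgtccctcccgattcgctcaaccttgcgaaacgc
Cox6a1 holds 3 matches to GCGCNTGCG, a form of the NRF1 motif, of which 2 overlap on opposite strands. Atp5e and Uqcrh each hold CCGGAAG, the ETS motif that GABPA binds, on the opposite strand. Uqcrfs1 holds none of the 4 motifs marked.

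The motifs were counted on both strands from 250 bases before to 50 bases after the start, in the 72 members and in 27025 promoters in all. GCGCNTGCG was present in 24 members (33.3%) and in 6.59% of all promoters. TGCGCATGC, a stricter form of the NRF1 motif that can overlap it, was present in 6 members (8.33%) and in 1.59% of all promoters. CCGGAAG was present in 16 members (22.2%) and in 9.12% of all promoters. AAGATGGCG, a YY1 motif, was present in 8 members (11.1%) and in 1.49% of all promoters. Each of these 4 was held by a larger share of the members than of all promoters, which was not tested. CCAAT, the NF-Y motif, was present in 31 members (43.1%) and in 37.9% of all promoters. Among the 27 called members with a promoter, GCGCNTGCG was in 6 (22.2%) and CCGGAAG in 7 (25.9%). TGCGCATGC and AAGATGGCG were in 2 each (7.41%), and CCAAT was in 13 (48.1%). These shares were lower than in the 72 members for GCGCNTGCG, TGCGCATGC and AAGATGGCG and higher for CCGGAAG and CCAAT, which was not tested. A match describes letters in a window and is neither a bound site nor a cause, and no match says only that these letters are absent from the window.

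The second comparison asked how marked GFP cells differed from unmarked GFP cells. It shares the marked GFP libraries with the first, so the fold changes of both are not independent. Of the 84 members, 19 (22.6%) rose in marked cells and 0 fell, against 6.24% of all tested genes called higher and 12.6% called in either direction (edgeR's quasi-likelihood test, adjusted as above). The members' median log2 fold change was 0.32, against 0.03 for all tested genes. Both marked libraries lay above both unmarked libraries in 52 members (61.9%), against 27% of all tested genes. Calls again sat in complexes IV (6 of 11) and III (4 of 8), with 5 of 36 in complex I, 3 of 16 in complex V, 1 of 9 assembly factors and 0 of 4 in complex II, where 3 members had an unadjusted p under 0.05 and DESeq2 called 2 (Sdhb and Sdhc).

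Cox8a had 183 and 164 CPM in marked GFP cells and 118 and 93.8 CPM in unmarked GFP cells, a log2 fold change of 0.74 ± 0.13 (SE, edgeR adjusted p = 0.0115). Uqcrq had 84.5 and 84.4 CPM in marked GFP cells and 55.7 and 49.7 CPM in unmarked GFP cells, a log2 fold change of 0.71 ± 0.12 (SE, edgeR adjusted p = 0.0124). These 2 had the smallest adjusted p of the members here. Of the 19 members called, 17 were also among the 29 of the first comparison. The other 2 were Ndufa2, an accessory subunit of complex I, and Ndufaf3, which works with Ndufaf4 in complex I assembly. Ndufaf3 had 31.8 and 32.8 CPM in marked GFP cells and 19.8 and 16.5 CPM in unmarked GFP cells, and rose by 0.86 ± 0.21 (log2, SE, edgeR adjusted p = 0.0365), the highest value of all members in this comparison. The lowest was Ndufaf2, at -0.48 ± 0.31 (log2, SE). Exons of Ndufaf2 overlap those of another gene, and it has near-identical copies. Atp5b, called in the first comparison, had 1079 and 1108 CPM in marked GFP cells and 1024 and 936 CPM in unmarked GFP cells and did not pass here (0.19 ± 0.07, log2, SE).

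These calls rested on more than the compared libraries. With the 4 GFP libraries alone in the fit 0 members passed, and 0 passed without unmarked GFP library 4. Without marked GFP library 3 only Uqcrq passed, without either marked Thy1.1 library only Cox8a and Uqcrq did, and without either unmarked Thy1.1 library Cox8a, Ndufb8 and Uqcrq did. All 19 had a positive fold change under every alternative and with every library left out, and with 1 library left out the members' median lay between 0.19 and 0.46.

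**Figure D4:**
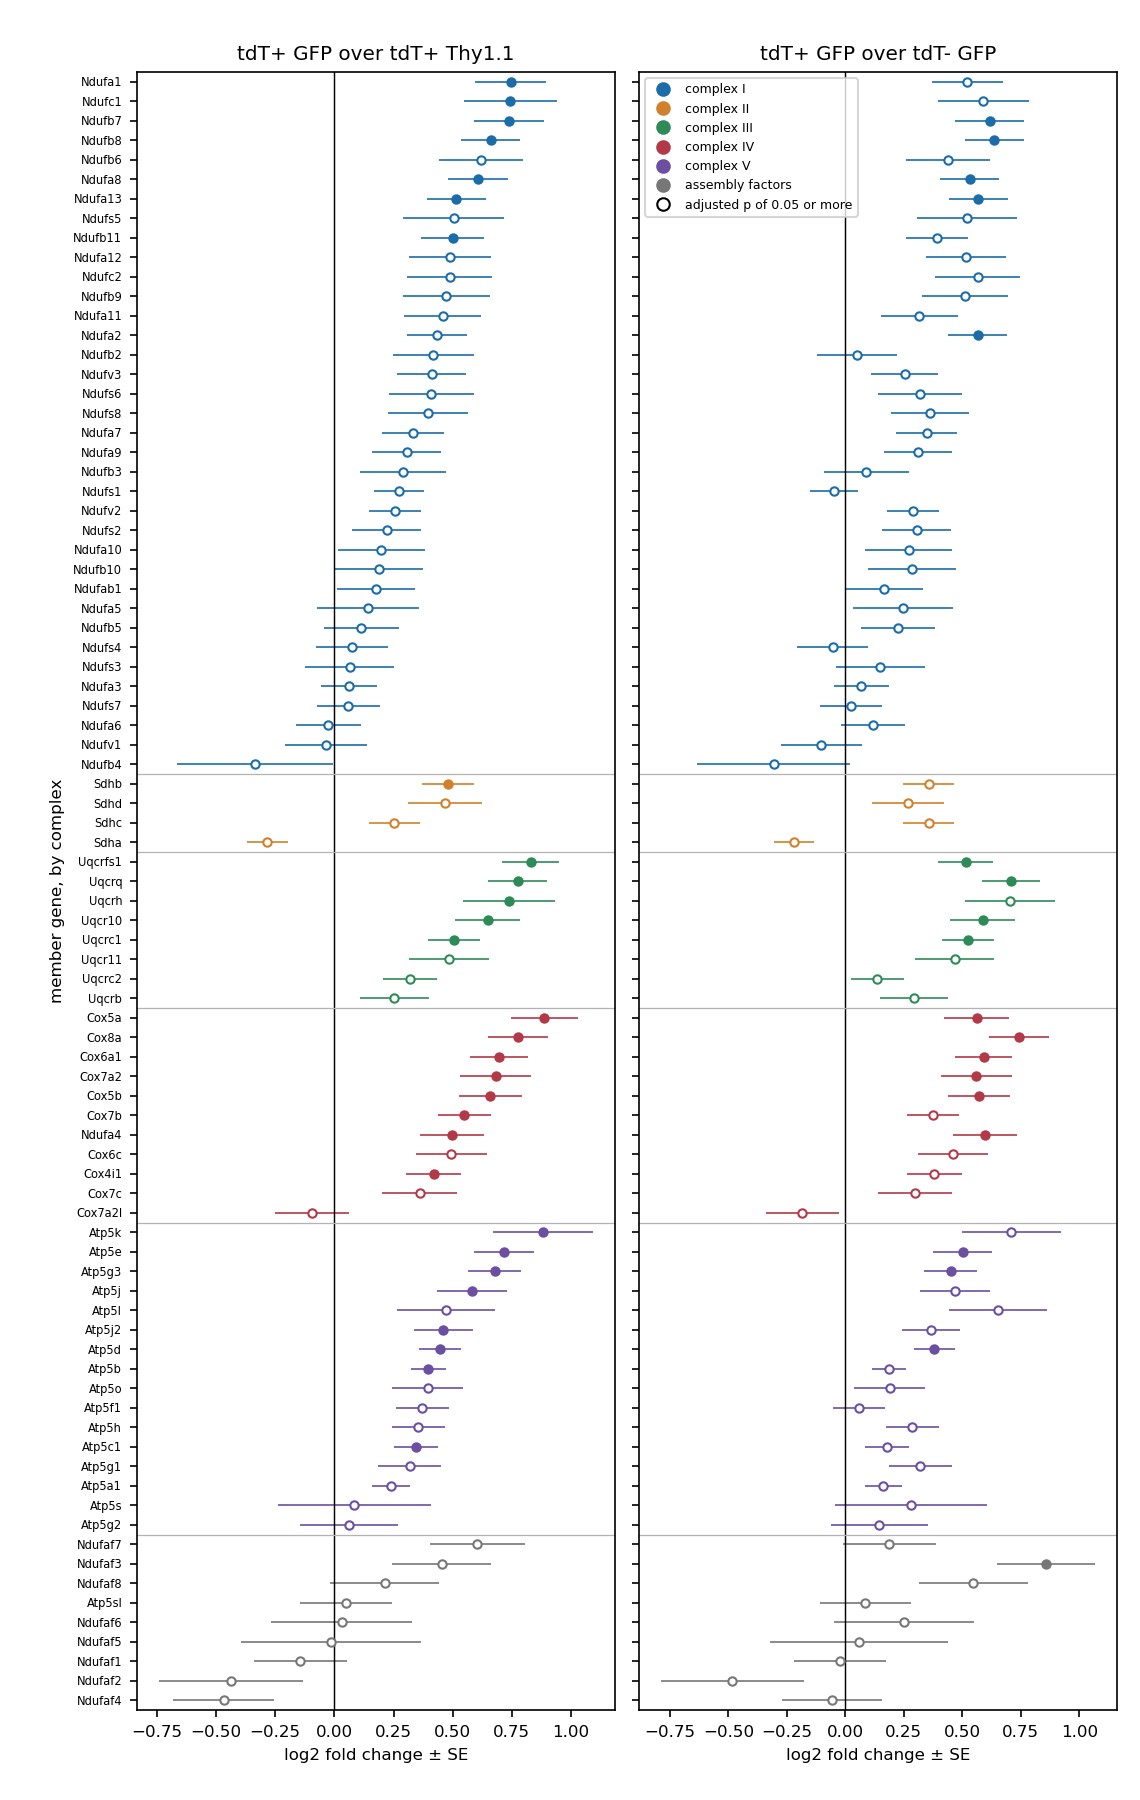
Log2 fold change with its standard error for each member, marked GFP over marked Thy1.1 cells at left and marked GFP over unmarked GFP cells at right. Filled points passed an adjusted p of 0.05. Both panels share the marked GFP libraries, and 75 of 84 points lie right of 0 in each.

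In unmarked cells, GFP against Thy1.1 gave 0 calls among the members, against 0.164% of all tested genes called. Their median log2 fold change was 0.14, and both GFP libraries lay above both Thy1.1 libraries in 31 members (36.9%), against 21.3% of all tested genes. An unadjusted p under 0.05 in edgeR was reached by 7 of 84 members and by 1662 of 13989 tested genes. The 7 were Atp5f1, Atp5g3, Cox5a, Cox8a, Ndufb2, Sdhb and Sdhd, all higher with GFP. DESeq2 called 1 member, Atp5g3. Atp5g3 had 248 and 201 CPM in unmarked GFP cells and 175 and 165 CPM in unmarked Thy1.1 cells, a log2 fold change of 0.40 ± 0.11 (SE, edgeR adjusted p = 0.214).

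Within Thy1.1 cells the mark gave 0 calls among the members and 0 among all tested genes in edgeR (0%), where 1063 genes and 2 members had an unadjusted p under 0.05 and DESeq2 called 149 genes and 0 members. The 2 members were Ndufs1, the largest core subunit of complex I, and Uqcrb, a quinone-binding subunit of complex III. Exons of both overlap those of other genes, and Uqcrb has a near-identical copy. Ndufs1 had 125 and 133 CPM in marked Thy1.1 cells and 153 and 155 CPM in unmarked Thy1.1 cells. Uqcrb had 61.3 and 60.5 CPM in marked Thy1.1 cells and 46.0 and 46.6 CPM in unmarked Thy1.1 cells. The members' median log2 fold change was 0.10. Both marked libraries lay above both unmarked libraries in 44 members (52.4%), against 27.1% of all tested genes.

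Whether the difference between reporters itself differed between marked and unmarked cells was tested as an interaction. No member passed in edgeR, 16 of 84 had an unadjusted p under 0.05, and DESeq2 called 1, Uqcrq. Of all 13989 tested genes 0.443% were called in edgeR, and 1792 had an unadjusted p under 0.05. The members' median interaction was 0.23 on the log2 scale, against 0.03 for all tested genes. The smallest adjusted p was that of Uqcrq, at 0.71 ± 0.17 (log2, SE, edgeR adjusted p = 0.165). The calls in marked cells and their absence in unmarked cells are therefore not shown to differ for any member by edgeR.

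Several measures moved with the members. The transcripts of the members are short, with a median of 821 bases against 2686.5 bases for tested genes, and short transcripts in general were higher in marked GFP cells. All tested genes of 500 to 1000 bases had a median log2 fold change of 0.17 against marked Thy1.1 cells and 0.24 against unmarked GFP cells. Across genes, Spearman's rho of length with fold change was -0.14 and -0.19 over all tested genes and -0.45 and -0.48 over the 84 members, which are not independent replicates. The trend was not limited to marked GFP cells. Over all tested genes rho was -0.21 for the mark in Thy1.1 cells and -0.11 for GFP against Thy1.1 in unmarked cells. Over the members these values were -0.05 and -0.18. With the length trend of each library removed, 20 members were called against marked Thy1.1 cells, all among the 29, and the members' median was 0.28. Against unmarked GFP cells 7 were called, 6 of them among the 19, with a median of 0.17. The length trend was removed as an alternative chosen after the data were seen.

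**Figure D5:**
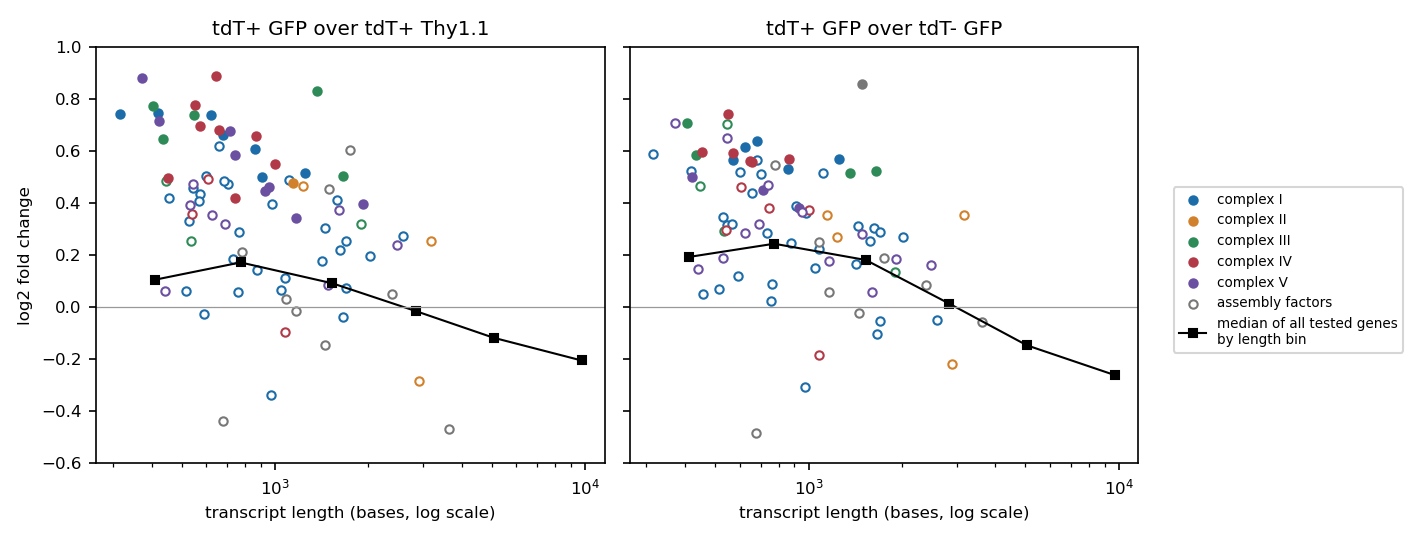
Log2 fold change of each member against its transcript length on a log axis, with filled points called at an adjusted p of 0.05. The black line joins medians of all tested genes in 6 bins of length. The black line is highest for transcripts of 500 to 1000 bases and falls towards longer ones, and all 29 members called against marked Thy1.1 cells are shorter than the median tested gene.

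Cell cycle genes moved with the marked GFP libraries too. Of 32 such genes, 31 rose in marked GFP cells against marked Thy1.1 cells, with a median log2 fold change of 2.45, and 16 rose against unmarked GFP cells, with a median of 1.08. Their summed level was 3760.2 and 3102 CPM in marked GFP cells, 1273 and 1188 CPM in marked Thy1.1 cells, 2163 and 1674 CPM in unmarked GFP cells, and 1307 and 1240.4 CPM in unmarked Thy1.1 cells. The part of the cell cycle genes was not tested. Markers of other cells were uneven. The 7 myeloid and dendritic markers summed to 27.7 and 2.71 CPM in marked GFP cells, 4.13 and 1.66 CPM in marked Thy1.1 cells, 102 and 10.3 CPM in unmarked GFP cells, and 4.95 and 4.22 CPM in unmarked Thy1.1 cells, with 1 to 5 of the 7 at 0. The 3 erythroid markers in the table reached 46.7 CPM in marked GFP library 3 and at most 5.25 CPM elsewhere. The 4 B cell, 4 CD8 and NK cell, and 4 stromal and epithelial markers summed to 8.01 to 54.9 CPM per list and library, with 0 to 2 of the 4 at 0. Among all these markers Hba-a2, a globin, rose against marked Thy1.1 cells, and Epcam rose and Cd8b1 fell against unmarked GFP cells. Of the 7 Treg cell and T cell markers, Ctla4 and Cd4 rose and Foxp3 and Ikzf2 fell against marked Thy1.1 cells, and Ctla4 and Cd4 rose and Ikzf2 fell against unmarked GFP cells. The part of these cells and markers in the members' differences was not tested.

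Of the 118 tested genes in 5 other mitochondrial lists, 17 (14.4%) were called against marked Thy1.1 cells and 10 (8.47%) against unmarked GFP cells. The shares over all tested genes were 14.8% and 12.6%, so in calls of either direction the lists together were not above the background. Most calls in the lists were higher, and each list's calls are given below. Of all tested genes, 8.01% and 6.24% were called higher in these comparisons. Against marked Thy1.1 cells the share called higher was above 8.01% in some lists. These were 4 of 26 electron carriers and subunits, 5 of 18 tricarboxylic acid cycle genes and 4 of 17 carriers, channels and uncoupling genes. It was below 8.01% for other assembly factors (2 of 38) and biogenesis genes (0 of 19). The lists were not tested as sets. Of 38 tested assembly factors outside the name rule, 2 rose and 1 fell in marked GFP cells against marked Thy1.1 cells, with a median log2 fold change of 0.03. Cox17, the copper chaperone of complex IV, had 82.6 and 75.0 CPM in marked GFP cells and 42.3 and 45.5 CPM in marked Thy1.1 cells, and rose by 0.90 ± 0.15 (log2, SE, edgeR adjusted p = 0.00868). Sdhaf1, which helps to insert the iron-sulfur clusters of Sdhb, fell to 38.6 and 29.9 CPM in marked GFP cells, against 59.6 and 69.4 CPM in marked Thy1.1 cells. The second riser was Cox14, another complex IV assembly factor. Against unmarked GFP cells, 3 of the 38 rose (Cox17, Cox14 and Coa3) and 1 fell (Lrpprc).

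Of 26 electron carriers and subunits outside the rule, 4 rose in marked GFP cells against marked Thy1.1 cells and 0 fell, with a median of 0.14. They were Cycs (cytochrome c), Coq7 of ubiquinone synthesis, and Usmg5 and 2010107E04Rik, small ATP synthase subunits whose names the rule does not match. Cyc1, the cytochrome subunit of complex III, had 179 and 161 CPM in marked GFP cells and 154 and 160.4 CPM in marked Thy1.1 cells and did not pass. Atpif1, the inhibitor of ATP hydrolysis by the synthase, had 73.5 and 52.5 CPM in marked GFP cells and 42.8 and 45.3 CPM in marked Thy1.1 cells and did not pass. Against unmarked GFP cells, 1 of the 26 rose, Etfb of the electron transfer flavoprotein.

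Of 18 genes of the tricarboxylic acid cycle and pyruvate entry, 5 rose against marked Thy1.1 cells and 0 fell, with a median of 0.15. Fh1, fumarate hydratase, which acts on the product of complex II, had 86.9 and 79.6 CPM in marked GFP cells and 44.3 and 50.3 CPM in marked Thy1.1 cells, a log2 fold change of 0.88 ± 0.13 (SE, edgeR adjusted p = 0.00621). The others were Cs, Idh3a, Mdh2 and Sucla2. Against unmarked GFP cells, 2 of the 18 rose, Fh1 and Idh3a. Of 17 carriers, channels and uncoupling genes, 4 rose against marked Thy1.1 cells and 0 fell, with a median of 0.33. Slc25a5, the ADP/ATP carrier that exports what complex V makes, had 589 and 553 CPM in marked GFP cells and 367 and 389.9 CPM in marked Thy1.1 cells. The other 3 were Ucp2, Vdac3 and Slc25a13, and against unmarked GFP cells Ucp2 alone rose.

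Of 19 genes of mitochondrial biogenesis and genome maintenance, 0 rose and 1 fell in marked GFP cells against marked Thy1.1 cells, with a median log2 fold change of -0.09. The 1 was Myc, a growth regulator, with 128 and 166 CPM in marked GFP cells, against 246 and 281 CPM in marked Thy1.1 cells. Against unmarked GFP cells Myc also fell and Mgme1, a nuclease of mitochondrial DNA, rose. Between GFP and Thy1.1 in unmarked cells, and for the mark in Thy1.1 cells, 0 of the 118 genes of these 5 lists were called in edgeR. In those comparisons 10 and 3 of the 118 had an unadjusted p under 0.05, as had 1662 and 1063 of 13989 tested genes. DESeq2 called 1 (Pprc1, lower with GFP) and 0 of the 118.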

How the data were processed

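RNA was measured in 8 libraries of sorted cells, 2 for each of 4 populations, amplified in 12 cycles with SMART-Seq v4 and sequenced as 50-base paired ends, per the labels' protocols. The authors deposited raw counts per gene, whole numbers with 1 column per library, per the file headers. DESeq is named, without a version, in the submitters' processing notes. Which aligner, counting tool, annotation and build were used is not given in the sources used here. Columns of GFP cells are numbered 3 and 4 where the titles say 1 and 2, so these were matched to their population alone. Whether libraries came from separate animals is not stated. The p-values therefore reflect only how much these libraries vary, and that variation may be technical.

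CPM was computed over the named genes. The 8 rows without a gene name held 0.0215% to 0.0264% of a library's counts and were left out. Tests used R 4.3.3, edgeR 4.0.16 (TMM, factors from 0.978 to 1.02, a minimum count of 10 in the expression filter, robust quasi-likelihood fit of all 8 libraries with a mean per population, 4 residual degrees of freedom), limma 3.58.1 and, as an alternative, DESeq2 1.42.0. Standard errors came from the F statistic. The limit for a count of 0 is 3 counts and covers counting error alone. Transcript lengths came from GENCODE M21 for 99.2% of tested genes and promoters from RefSeq.

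The members, gene lists and tests were chosen with earlier results of these data known. Named members were, per comparison and complex, up to 4 with the smallest adjusted p, the extremes of fold change and of CPM per kb, the isoform families and the Sdh genes. Other genes are named from the lists. Cox7b, Uqcrh in the first comparison and other members named to complete a count were chosen after their values were seen where the rule did not name them. The lists held other assembly factors, electron carriers, the tricarboxylic acid cycle, biogenesis, carriers and uncoupling, the cell cycle and markers of Treg and other cells. Alternatives were other scalings, filters, DESeq2, fewer libraries and blocks by library number.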

Additional observations from a re-analysis of the deposited data

How the results depend on the processing

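Counts of members called higher in marked GFP against marked Thy1.1 cells were 25 with RLE size factors, 20 with library totals (1 lower), 23 without an expression filter, 29 with at least 1 CPM in every library (1 lower), 36 with DESeq2 (1 lower), 21 with the compared libraries alone and 20 with the length trend removed, against 29 as reported, and 0 to 30 with 1 library left out. In marked against unmarked GFP cells they were 18, 15, 15, 20, 30, 0 and 7, against 19 as reported, and 0 to 18 with 1 library left out. DESeq2 called 1 member for GFP against Thy1.1 in unmarked cells and 1 for the interaction. The causes were not tested, except that fewer libraries leave fewer residual degrees of freedom. No scaling moved the median of all tested genes by 0.1 or more on the log2 scale.

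Over all tested genes, calls with DESeq2 were 3217, 622, 3014, 149 and 594 (GFP against Thy1.1 in marked and in unmarked cells, the mark in GFP and in Thy1.1 cells, and the interaction), against 2074, 23, 1768, 0 and 62 as reported. Without a filter they were 98 for GFP against Thy1.1 in unmarked cells and 109 for the interaction, and with the strict filter 109 and 108. With the compared libraries alone they were 1 for GFP against Thy1.1 in unmarked cells, 300 for the mark in GFP cells and 2 for the mark in Thy1.1 cells. With 1 library left out they ranged from 481 to 2118 for GFP against Thy1.1 in marked cells, 0 to 75 in unmarked cells, 458 to 1801 for the mark in GFP cells and 0 to 119 for the interaction.

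The difference between the odd and the even library of a population correlated across genes at 0.0560 between the GFP populations and at 0.0509 between the Thy1.1 populations, and at 0.0325 to 0.0524 between populations of different reporters. These values are under 0.1, so the numbers were not taken to pair the libraries, although GFP library 3 exceeded GFP library 4 in most members in marked and in unmarked cells. With the number as a replicate block, odd with odd, 32 members and 2214 genes were called in the first comparison, 20 members and 1856 genes for the mark in GFP cells, 0 members and 39 genes for GFP against Thy1.1 in unmarked cells, and 0 members and 63 genes for the interaction. With the block nested in the reporter, 26 members and 2039 genes were called for the mark in GFP cells.

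Fold changes that turned sign were small. For GFP against Thy1.1 in marked cells, Atp5g2 was -0.10 without marked Thy1.1 library 1 and -0.05 without marked GFP library 3 (-0.10 to 0.13 with 1 library left out) and -0.13 with the length trend removed, and Cox7a2l was 0.082 without marked GFP library 4 (-0.37 to 0.082). For the mark in GFP cells, Atp5g2 was -0.13 without unmarked GFP library 4 (-0.13 to 0.42) and -0.065 with the length trend removed, Ndufaf7 was -0.069 without unmarked GFP library 4 (-0.069 to 0.45), and Cox7a2l was 0.0055 without marked GFP library 4 (-0.45 to 0.0055). Even the lowest member, Ndufaf2, had 270 to 620 counts per library.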
